A study of Mus musculus with 2 samples.

Results

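Notch signalling passes between touching cells. A ligand of the Jagged or Delta-like family on one cell binds a Notch receptor on its neighbour, γ-secretase then frees the intracellular part of the receptor, and this part joins the DNA-binding protein RBPJ and a Mastermind coactivator to switch on HES and HEY genes, which encode transcriptional repressors. In peripheral nerve the pathway is known for driving Schwann cell precursors towards immature Schwann cells and for opposing myelination. In vessels, Dll4 and Notch1 act in sprouting endothelium, while Jag1 and Notch3 act between endothelium and mural cells, the pericytes and smooth muscle of the vessel wall.

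The genes described here are 10 of the 32285 genes counted, chosen by symbol in the gene lists of both libraries. They comprise 3 receptors (Notch1, Notch2 and Notch3), 3 ligands (Jag1, Dll1 and Dll4) and 4 targets (Hes1, Hes5, Hey1 and Hey2). All 10 had UMIs in cells of both libraries. Hes1 was included because its level was already known to be higher in satellite glia of the cKO library, so every difference below is a description and none was tested. Another 52 Notch pathway genes, listed by role, serve as company for the 10.

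The cells came from dorsal root ganglia, the sensory ganglia that flank the spinal cord, taken at all axial levels from mice at postnatal day 4. The cKO library came from mice labelled Dhh CRE+, Ptges3 flox/flox, and the flox library from mice labelled Ptges3 flox/flox, so both carried the floxed alleles and only the cKO mice carried the Cre. Dhh-Cre acts in the Schwann cell lineage, and Ptges3 encodes p23, which assists HSP90 and has also been called cytosolic prostaglandin E synthase. There was 1 library per genotype, and the sources used here do not give how many mice or which sexes went into each. A difference between genotypes therefore cannot be told apart from a difference between 2 preparations, and the 95% intervals below cover counting error only.

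The cKO library held 78144437 UMIs (unique molecular identifiers, each counting 1 captured RNA molecule) in 9703 barcodes, and the flox library 132620886 UMIs in 10014 barcodes. After filtering there were 7866 cKO cells with a median of 4319.5 UMIs and 8107 flox cells with a median of 6886. Between the libraries, 23 barcode sequences were shared, and 16 of them were kept as cells in both. In all 4 glial groups Ptges3 was lower in cKO than in flox, with log2 ratios of -0.62 to -1.17, and it was higher in neuron-like, endothelial-like and mural-like cells, at 0.51 to 0.66. The libraries stood apart in other respects. Summed over 14 heat shock genes, levels were higher in cKO in 6 of the 7 main groups, the exception being neuron-like cells. There the list moved both ways. The abundant Hsp90ab1 (log2 ratio -0.30), Hsp90aa1 (-0.24) and Hspa8 (-0.15) were lower in cKO, while Hspa1a (2.98) and Hspa1b (2.76) were higher. Summed over 22 immediate early genes, levels were lower in cKO in the same 6 groups. In neuron-like cells they were higher, at 2060 CPM in cKO and 1610 CPM in flox. This list also moved both ways in satellite-glia-like cells, where Fos (-1.04) and Socs3 (-1.58) were among the lower genes. Atf3 (0.88), Ier5 (1.29) and Maff (1.18) were higher there. Cells of central type were nearly all from flox, with 23 cKO and 649 flox oligodendrocyte-like cells and 1 cKO and 149 flox astrocyte-like cells.

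Cells were grouped by per-cell limits on marker genes, with every Notch gene left out of the markers. There were 402 cKO and 307 flox satellite-glia-like cells, named for the glia around neuronal somata, with Fabp7 at 7970 CPM in cKO and 8030 CPM in flox. CPM means UMIs per 1000000 UMIs of that cell group in that library. Immature glia, which carried glial lineage genes without passing the satellite, myelin or cycling limits, numbered 1275 in cKO and 1410 in flox. Their name rests on this exclusion. Markers of the immature Schwann lineage summed to 1570 CPM in cKO and 1780 CPM in flox there, against 1830 and 1780 CPM in neuron-like cells. Myelinating-Schwann-like cells, chosen by 12 myelin markers, numbered 396 in cKO and 1244 in flox. Cycling glia numbered 457 in cKO and 496 in flox, and neuron-like cells 3143 in cKO and 1570 in flox. Of vessel cells, there were 143 cKO and 153 flox endothelial-like cells and 153 cKO and 117 flox mural-like cells. Median depth was lower in cKO in all 7 groups, the widest gap being 9012 UMIs in cKO neuron-like cells and 46680.5 in flox ones. In clusters made without Notch genes, immature glia fell mostly in 1 cluster per library, cluster 1 in cKO (75.6% of them) and cluster 0 in flox (81.3%). Myelinating-Schwann-like cells also separated, into cluster 15 in cKO and clusters 7 and 12 in flox. By contrast, satellite-glia-like, cycling, endothelial-like and mural-like cells of the 2 libraries shared their main cluster.

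The promoters of Hes5 and Hey2 are shown because both genes are direct targets of RBPJ, and among the members they were the ones whose window held its motif. The windows run from 250 bases before to 10 bases after the annotated start, 5′ to 3′ on the gene's strand, from RefSeq on GRCm38.p6. Capitals mark TGGGAA and its reverse complement TTCCCA, the core letters bound by RBPJ. The Hes5 window is chr4:154960673-154960932 on the plus strand and the Hey2 window chr10:30842774-30843033 on the minus strand.
Hes5: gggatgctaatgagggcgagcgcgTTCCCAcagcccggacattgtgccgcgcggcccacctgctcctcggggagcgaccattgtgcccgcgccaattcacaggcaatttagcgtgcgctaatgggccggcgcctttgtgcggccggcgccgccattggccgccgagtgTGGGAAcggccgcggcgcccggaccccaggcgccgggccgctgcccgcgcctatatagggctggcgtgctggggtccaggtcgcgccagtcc
Hey2: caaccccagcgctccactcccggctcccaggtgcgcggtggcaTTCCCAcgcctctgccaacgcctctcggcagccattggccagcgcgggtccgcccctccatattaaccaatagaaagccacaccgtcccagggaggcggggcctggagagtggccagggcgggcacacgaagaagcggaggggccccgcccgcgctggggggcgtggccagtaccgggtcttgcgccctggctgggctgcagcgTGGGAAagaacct

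In Hes5 the motif lay at -226 to -221 as the reverse complement and at -82 to -77 in the forward sense, counted from the start. In Hey2 it lay at -207 to -202 as the reverse complement and at -3 to 3 in the forward sense. Each of the 4 matches was also a match to the longer GTGGGAA or its reverse complement TTCCCAC. Among 32851 promoter windows of the same length, 22.4% held TGGGAA on either strand and 2.97% held it at least 2 times, while 5.58% held GTGGGAA and 0.186% held it at least 2 times. The windows of Notch1, Notch2, Notch3, Jag1, Dll4 and both windows of Dll1 held neither. A window was found for 8 of the 10 members, not for Hes1 or Hey1.

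On GRCm38 (GENCODE vM21), the receptors lie at chr2:26457903-26516663 (Notch1, minus strand), chr3:98013527-98150361 (Notch2, plus) and chr17:32120820-32166852 (Notch3, minus). The ligands lie at chr2:137081456-137116644 (Jag1, minus), chr17:15367354-15376872 (Dll1, minus) and chr2:119325784-119335962 (Dll4, plus). The targets lie at chr16:30064384-30067796 (Hes1, plus), chr4:154960923-154962371 (Hes5, plus), chr3:8663359-8667256 (Hey1, minus) and chr10:30832359-30842801 (Hey2, minus). Notch1, Notch3, Dll1, Dll4 and Hes5 overlap an annotated gene on the opposite strand. On their own strand, Notch2 overlaps annotated transcripts and Notch1 overlaps the microRNA gene Mir6996. The sources used here do not give whether counting used strand, so reads from such partners may be included.

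In satellite-glia-like cells the target Hes1 was higher in cKO while the receptor Notch1, the ligand Jag1 and the target Hes5 were lower. Hes1 had 344 UMIs in cKO, a level of 266 CPM (95% interval 238 to 295), against 115 UMIs and 79.8 CPM (65.9 to 95.8) in flox. The intervals of the 2 libraries did not overlap, and the log2 ratio was 1.74 (1.43 to 2.05), a fold of 3.33. It ranged from 1.35 to 2.20 over 12 alternatives, and was 1.85 with TMM scaling. Because cKO cells were shallower, each cell was also thinned to 1000 UMIs. Hes1 then had a UMI in 17.7% of cKO cells (14.1 to 21.7) and 5.21% of flox cells (3.01 to 8.33), against 37.3% and 24.1% unthinned. In macrophage-like cells, which show what free RNA and low expression can give, the thinned shares were 0.559% in cKO and 2.30% in flox (unthinned 1.68% and 6.21%, median depth 3907 and 4473 UMIs).

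Notch1, a receptor, had 192 UMIs and 148 CPM (128 to 171) in cKO against 329 UMIs and 228 CPM (204 to 254) in flox, a log2 ratio of -0.62 (-0.89 to -0.36). Jag1 had 116 UMIs and 89.6 CPM (74.0 to 107) in cKO against 244 UMIs and 169 CPM (149 to 192) in flox, a log2 ratio of -0.92 (-1.25 to -0.59). Both were lower in cKO with no overlap of their intervals, and the thinned shares lay in the same order: 13.7% of cKO and 21.8% of flox cells for Notch1, 7.96% and 15% for Jag1. The thinned intervals overlapped slightly for Notch1 (10.5 to 17.4 in cKO, 17.3 to 26.9 in flox) but not for Jag1. Hes5, a target typical of glial progenitors, had 40 UMIs and 30.9 CPM in cKO against 89 UMIs and 61.7 CPM in flox, a log2 ratio of -1.0 (-1.58 to -0.45). With thinning the Hes5 ratio was -0.50, and its thinned shares of 2.74% in cKO and 3.91% in flox had overlapping intervals. Hey2 had 112 CPM in cKO and 145 CPM in flox, at -0.37 (-0.69 to -0.06), and Hey1 had 44.0 and 45.1 CPM, at -0.03 (-0.57 to 0.50). Notch2 had 23.9 CPM in cKO and 34.0 CPM in flox, and its ratio of -0.51 had an interval, -1.2 to 0.17, that included no difference. Notch3 had 15 cKO and 27 flox UMIs, Dll1 had 5 and 0, and Dll4 had none in either library, which allows up to 2.32 CPM in cKO and 2.08 CPM in flox.

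Counting a gene as measured from 50 UMIs over both libraries and as higher or lower from 0.5 log2, 1 of 7 measured members was higher in satellite-glia-like cells, where 7.13% of all 6617 measured genes were. That member was Hes1, included because this difference was already known, so the count of higher members carries no weight. Lower were 4 of 7, against 17.8% of all genes. The median of the 7 was -0.51, and that of all genes -0.12. TMM factors, which centre the bulk of genes, moved every ratio up by 0.11 in satellite-glia-like cells and 0.13 in mural-like cells, and shifted those of the other main groups by -0.04 to 0.07. With this scaling the Notch2 ratio was -0.39. Heat shock genes summed to 10900 CPM in cKO and 8110 CPM in flox satellite-glia-like cells, and immediate early genes to 13500 and 17300 CPM. Among cells at or below the group's median share of heat shock UMIs the Hes1 ratio was 1.80, and among those low in immediate early UMIs it was 1.35. Astrocyte markers summed to 227 CPM in cKO, with 4 of 12 at 0, and 463 CPM in flox, with 1 at 0. Oligodendrocyte markers summed to 159 CPM, with 7 of 10 at 0, and 284 CPM, with 1 at 0. Flox astrocyte-like cells themselves held 147 CPM of Notch1, 90.0 CPM of Hes5 and 167 CPM of Hey2, and the part of such RNA in the lower cKO values was not tested.

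**Figure D1:**
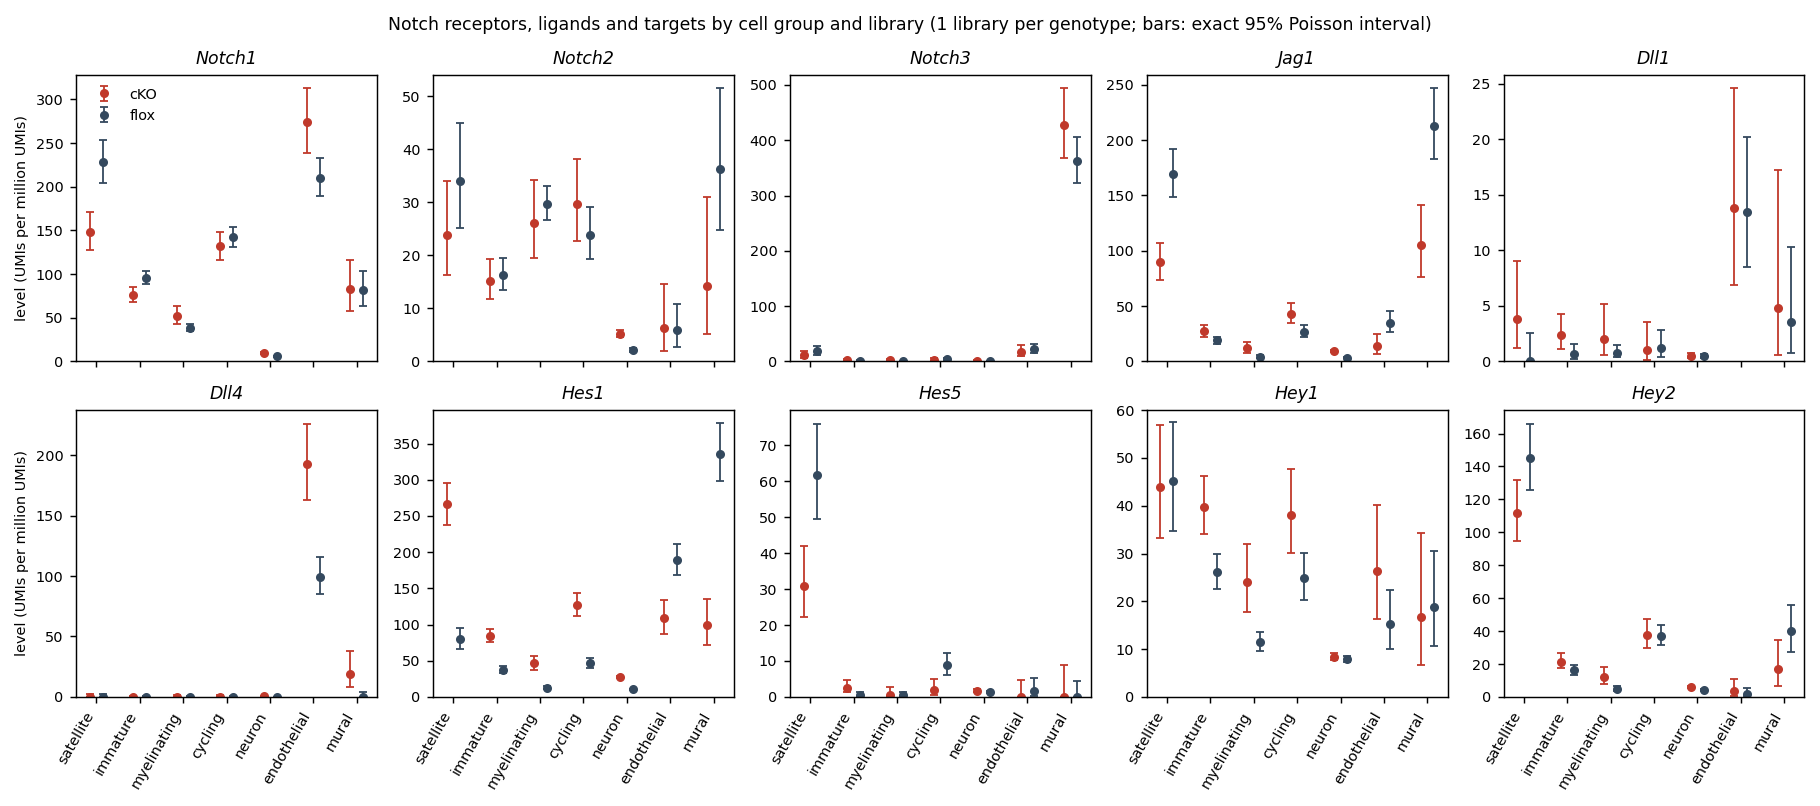
Level of each member in the 7 main cell groups, in CPM, for the cKO library (red, left) and the flox library (dark, right), with bars for exact 95% Poisson intervals. Hes1 is at 266 CPM in cKO and 79.8 CPM in flox satellite-glia-like cells, Notch3 is highest in mural-like cells and Dll4 in endothelial-like cells in both libraries.

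In immature glia, Hes1 was again the member that differed most among the 6 with at least 50 UMIs. It had 360 UMIs and 84.3 CPM (75.8 to 93.5) in cKO against 281 UMIs and 37.6 CPM (33.3 to 42.2) in flox, a log2 ratio of 1.17 (0.94 to 1.40). After thinning, 6.98% of cKO cells (5.64 to 8.52) and 4.75% of flox cells (3.70 to 6.0) had a Hes1 UMI, intervals that overlapped slightly. Hey1, a helix-loop-helix repressor of the same family as Hey2, had 39.8 CPM in cKO and 26.1 CPM in flox, at 0.61 (0.31 to 0.91). Jag1 had 27.2 and 19.0 CPM, at 0.52 (0.15 to 0.88), the opposite sign to satellite-glia-like cells. Notch1 had 76.1 CPM in cKO and 95.6 CPM in flox, at -0.33 (-0.52 to -0.14). For Hey2 the ratio was 0.40 (-0.01 to 0.80) and for Notch2 -0.10 (-0.56 to 0.35). UMIs of the rest were few, 12 in cKO and 7 in flox for Notch3, 10 and 5 for Dll1, 0 and 1 for Dll4, and 11 and 4 for Hes5.

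Higher in immature glia were 3 of 6 measured members, against 9.52% of all genes, and lower were 0 of 6, against 17.1%. Heat shock genes summed to 12400 CPM in cKO and 9690 CPM in flox. Among cells low in heat shock UMIs the Hes1 ratio was 0.55, that of Jag1 -0.16 and that of Hey1 -0.17, so Jag1 and Hey1 no longer counted as higher. Hes1 was at 0.72, Jag1 at 0.36 and Hey1 at 0.21 when groups were taken from clusters, and each library then contributed mainly its own cluster. Fibroblast markers summed to 5260 CPM in cKO and 7400 CPM in flox immature glia. Fibroblast-like cells themselves held Hes1 at 201 CPM in cKO and 132 CPM in flox, and the part of such RNA here was not tested.

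Among myelinating-Schwann-like cells, 3 targets and 1 ligand were higher in cKO, all from low levels. Hes1 had 93 UMIs and 46.6 CPM (37.6 to 57.1) in cKO against 140 UMIs and 12.5 CPM (10.5 to 14.7) in flox, a log2 ratio of 1.90 (1.51 to 2.29). Macrophage-like cells held Hes1 at 5.0 CPM in cKO and 18.7 CPM in flox, so the flox value here was not above theirs. Hey1 had 24.1 CPM in cKO and 11.4 CPM in flox, at 1.07 (0.56 to 1.56), and Hey2 had 12.0 and 5.09 CPM, at 1.24 (0.49 to 1.95). Jag1 had 24 UMIs and 12.0 CPM in cKO against 46 UMIs and 4.11 CPM in flox, at 1.55 (0.77 to 2.29). Thinned Jag1 shares of 0.758% in cKO and 0.402% in flox had overlapping intervals. Macrophage-like cells held Jag1 at 12.5 CPM in cKO and 7.66 CPM in flox, so it stood no higher here than there. The receptors were closer, with Notch1 at 52.1 and 38.6 CPM, a ratio of 0.43 (0.11 to 0.74), and Notch2 at 26.1 and 29.7 CPM, a ratio of -0.19 (-0.64 to 0.24). Notch3 had 4 cKO and 7 flox UMIs, Dll1 4 and 9, Dll4 0 and 4, and Hes5 1 and 7.

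Higher in this group were 4 of 6 measured members, where 15.1% of all genes were, and lower were 0 of 6, where 14.9% were. The 2 libraries differed here in myelin content as well as depth, the 12 myelin markers summing to 73900 CPM in cKO and 140000 CPM in flox. Among cells with 2000 to 5000 UMIs, a range chosen after seeing the data, the ratios were 0.56 for Hes1, 0.29 for Hey1, -0.27 for Hey2 and 1.31 for Jag1. The Hes1 share after thinning was 4.04% (2.33 to 6.48) in cKO and 1.53% (0.922 to 2.37) in flox. A thinned level of Hey2 near that of 1 UMI in each of few cells, 1.01% in cKO and 0.884% in flox, gives no order.

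Cycling glia carried the same set as immature glia. Hes1 had 256 UMIs and 127 CPM (112 to 143) in cKO against 190 UMIs and 46.6 CPM (40.2 to 53.8) in flox, a log2 ratio of 1.44 (1.16 to 1.72), and its thinned share was 10.7% (8.04 to 13.9) in cKO and 3.23% (1.85 to 5.19) in flox. Jag1 was at 43.0 CPM in cKO and 27.0 CPM in flox, with a ratio of 0.67 (0.25 to 1.09), and Hey1 at 38.1 and 24.8 CPM, with a ratio of 0.62 (0.17 to 1.06). Among cells with 2000 to 5000 UMIs the Hes1 ratio was 0.67. The Hey1 ratio was -0.01 among cells low in heat shock UMIs and -0.53 among cells with 2000 to 5000 UMIs, and that of Jag1 was 0.35 among the cells low in heat shock UMIs. Notch1 was at 132 and 142 CPM, Notch2 at 29.7 and 23.8 CPM and Hey2 at 37.6 and 37.1 CPM, with ratios of -0.11, 0.32 and 0.02. Hes5 had 4 UMIs in cKO and 36 in flox, under the 50 needed to count it as measured, Notch3 had 6 and 18, Dll1 had 2 and 5, and Dll4 had none. Higher were 3 of 6 measured members, against 7.99% of all genes, and lower were 0, against 14.7%.

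**Figure D2:**
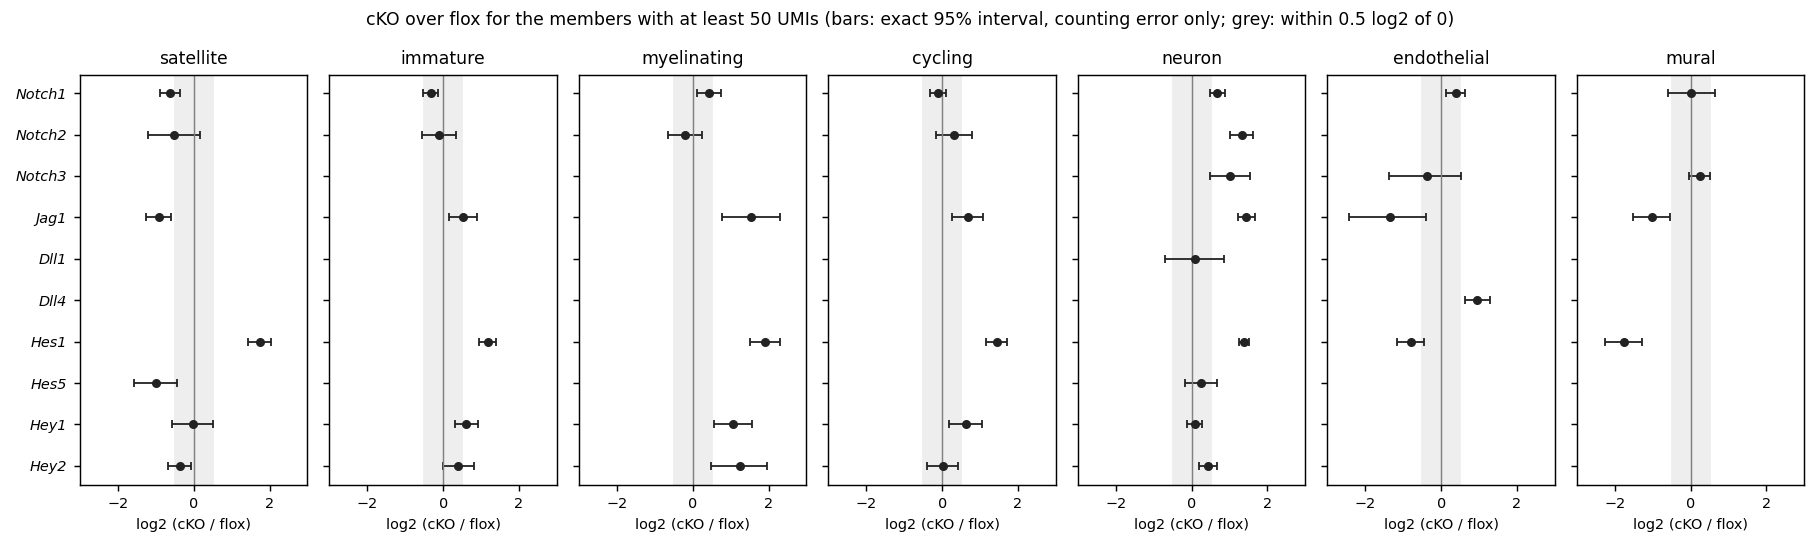
Log2 ratio of cKO over flox for each member with at least 50 UMIs, by cell group, with exact 95% intervals for counting error and grey for the band within 0.5 of 0. Hes1 lies to the right of the band in all 4 glial groups and in neuron-like cells, and to the left in endothelial-like (-0.80) and mural-like cells (-1.75).

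The plot of thinned shares sets the 2 libraries at equal depth per cell. For Hes1 the cKO bar stood above the flox bar in the 4 glial groups and neuron-like cells and below it in both vessel groups, with intervals that did not overlap in satellite-glia-like, cycling, neuron-like and mural-like cells. For Notch1 and Jag1 the satellite-glia-like bars stood lower in cKO, with intervals that overlapped for Notch1.

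**Figure D3:**
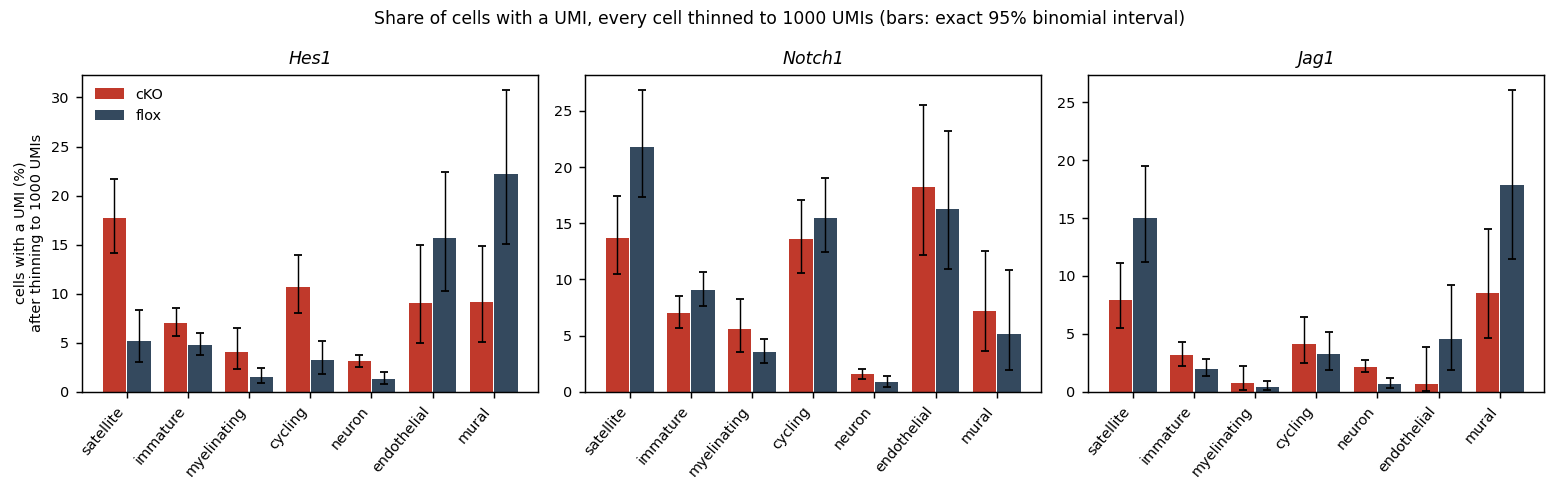
Share of cells with a UMI of Hes1, Notch1 or Jag1 after every cell was thinned to 1000 UMIs, in percent, for cKO (red, left) and flox (dark, right), with exact 95% binomial intervals. In satellite-glia-like cells the Hes1 share is 17.7% in cKO and 5.21% in flox, and the Notch1 share 13.7% in cKO and 21.8% in flox. The Notch1 intervals overlap there.

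The libraries filled the neuronal clusters unequally. Cluster 5 held 23.8% of cKO and 6.18% of flox neuron-like cells, cluster 6 held 20.9% and 6.62%, cluster 8 held 9.93% and 25.9%, and cluster 23 held 169 cKO cells and no flox cell. Neuron-like cells had low levels of every member, and pooled over all depths 5 of 9 measured members were higher in cKO, where 9.29% of all genes were, and 0 were lower, where 4.35% were. Hes1 had 1427 UMIs and 27.4 CPM (26.0 to 28.8) in cKO against 728 UMIs and 10.5 CPM (9.80 to 11.3) in flox, a log2 ratio of 1.37 (1.24 to 1.51). This flox value lay below the 18.7 CPM of Hes1 in flox macrophage-like cells. Pooled ratios were 0.68 for Notch1 (9.72 CPM in cKO, 6.07 in flox), 1.32 for Notch2 (5.19 and 2.09), 1.01 for Notch3 (1.57 and 0.782) and 1.43 for Jag1 (9.51 and 3.52). Hey2 was at 0.43, but at -0.37 in cells low in heat shock UMIs and -1.74 in cells with 2000 to 5000 UMIs. Hes5 was at 0.25, and Hey1 and Dll1 both at 0.08. Dll4 had 33 UMIs in cKO and 10 in flox.

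Member levels depended on depth in neuron-like cells, where the libraries were least alike, and so did the size of the Hes1 difference. In cells with at least 40000 UMIs (366 cKO and 927 flox cells), Notch1 had 4.79 CPM in cKO and 5.0 CPM in flox. Jag1 was at 3.14 and 2.77 CPM, Notch2 at 1.80 and 1.24 CPM, Notch3 at 0.649 and 0.558 CPM, and Hey1 at 7.34 CPM in each. The intervals of these members overlapped at this depth. Those of Hes1 did not, with 19.1 CPM (17.2 to 21.1) in cKO and 10.5 CPM (9.67 to 11.4) in flox. Between 10000 and 40000 UMIs (1120 cKO and 408 flox cells), Hes1 had 31.3 CPM in cKO and 11.0 CPM in flox, Notch1 11.8 and 10.7 CPM, Jag1 9.75 and 6.96 CPM, Notch2 4.73 and 5.93 CPM, and Hey1 8.01 and 11.5 CPM. Hey1 was thus lower in cKO at this depth, and its intervals, 6.93 to 9.21 in cKO and 9.53 to 13.7 in flox, did not overlap. Below 10000 UMIs (1657 and 235 cells), Hes1 had 36.4 CPM (32.2 to 41.0) in cKO and 9.03 CPM (4.13 to 17.2) in flox, and Jag1 25.9 CPM (22.4 to 29.8) in cKO and 10.0 CPM (4.81 to 18.5) in flox. Hey2 was lower in cKO in that range, with 8.23 CPM (6.29 to 10.6) against 18.1 CPM (10.7 to 28.6) in flox, and its intervals overlapped in the deeper ranges. Hes1 was thus higher in cKO in all 3 depth ranges, which were set after seeing the data. Its levels in the 2 libraries lay closest in the deepest cells. Notch1, by contrast, had overlapping intervals in each range, with 16.2 CPM in cKO and 18.1 CPM in flox below 10000 UMIs. The Notch1 ratio was -0.82 in cells with 2000 to 5000 UMIs and -0.20 in cells low in heat shock UMIs. Thinning gave -0.19 for Notch3.

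Glial RNA was present in these cells. The satellite marker list summed to 487 CPM in cKO and 309 CPM in flox over all neuron-like cells, with no marker at 0. At 40000 UMIs and over, the same list stood at 183 CPM in cKO and 239 CPM in flox, and the glial lineage list at 334 and 327 CPM. Endothelial markers summed to 21.4 CPM in cKO and 8.90 CPM in flox, and the part of glial or vessel RNA in the neuronal values was not tested.

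**Figure D4:**
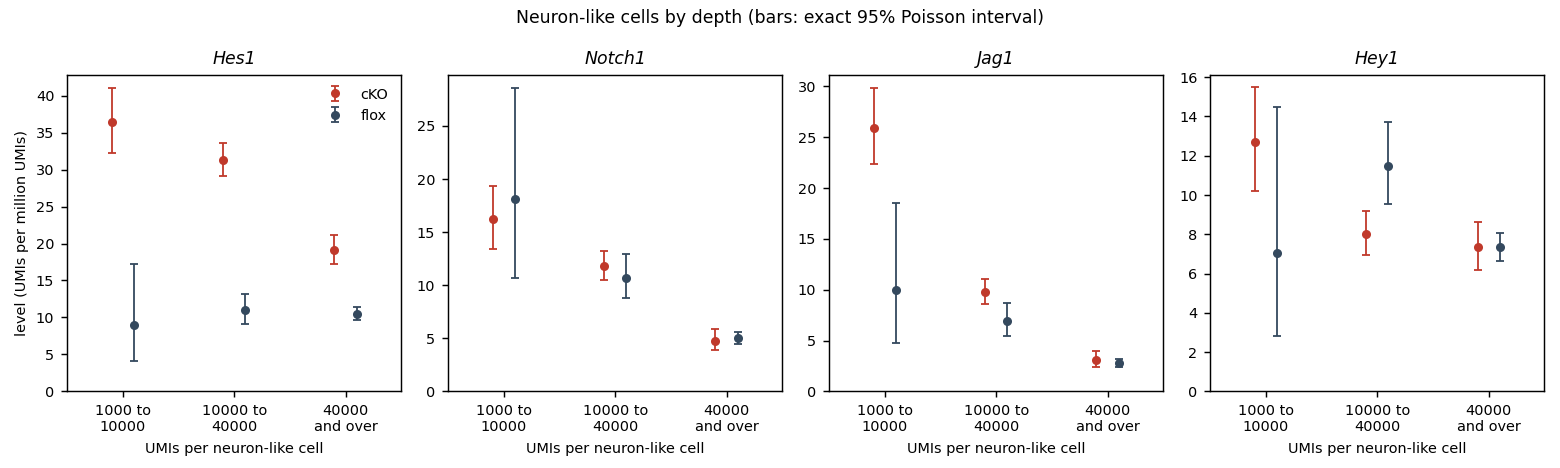
Levels of Hes1, Notch1, Jag1 and Hey1 in neuron-like cells split by UMIs per cell, in CPM, for cKO (red, left) and flox (dark, right), with exact 95% Poisson intervals. Hes1 is higher in cKO in each range, while Notch1 is at 4.79 CPM in cKO and 5.0 CPM in flox among the deepest cells.

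In endothelial-like cells the ligand Dll4, which marks sprouting and arterial endothelium, was higher in cKO, and Hes1 and Jag1 were lower. Dll4 had 154 UMIs and 193 CPM (163 to 226) in cKO against 170 UMIs and 99.6 CPM (85.2 to 116) in flox, a log2 ratio of 0.95 (0.63 to 1.28). Its thinned share was 17.5% (11.6 to 24.7) in cKO and 3.92% (1.45 to 8.34) in flox, and its ratio was 2.32 with thinning and 0.44 among cells low in heat shock UMIs. Hes1 had 87 UMIs and 109 CPM (87.2 to 134) in cKO against 323 UMIs and 189 CPM (169 to 211) in flox, at -0.80 (-1.16 to -0.45), the reverse of its sign in glia. With thinning the Hes1 ratio was -0.38, and in cells with 2000 to 5000 UMIs it was -0.32, so it did not count as lower under these alternatives. Jag1 had 11 UMIs and 13.8 CPM in cKO against 60 UMIs and 35.1 CPM in flox, at -1.35 (-2.43 to -0.41).

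Notch1, the receptor for Dll4 in this cell type, had 274 CPM (239 to 313) in cKO and 210 CPM (189 to 233) in flox, at 0.39 (0.14 to 0.63), and Notch3 had 14 and 39 UMIs, at -0.38 (-1.38 to 0.53). Other members were sparse, with Notch2 at 5 cKO and 10 flox UMIs, Dll1 at 11 and 23, Hes5 at 0 and 3, Hey1 at 21 and 26, and Hey2 at 3 and 3. Of 5 measured members 1 was higher, where 19.3% of all genes were, and 2 were lower, where 24.8% were. The groups also differed in myelin RNA, at 231 CPM in cKO with 4 of 12 markers at 0 and 1600 CPM in flox with none at 0, and in mural markers, at 335 and 606 CPM with none at 0. Their part in the vessel values was not tested.

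Mural-like cells were the main site of Notch3, at 179 UMIs and 427 CPM (367 to 494) in cKO and 309 UMIs and 362 CPM (323 to 405) in flox. Notch3 is itself a mural marker and was kept out of the marker list, so that its level had no part in choosing these cells. The ratio of 0.24 (-0.04 to 0.51) included no difference, thinned shares were 28.8% in cKO and 29.9% in flox, and adding Notch3 to the markers gave 0.29. Hes1 was lower in cKO than in flox, with 42 UMIs and 100 CPM (72.2 to 135) against 287 UMIs and 336 CPM (299 to 378), at -1.75 (-2.25 to -1.28). Thinning brought the Hes1 ratio to -0.93, with shares of 9.15% (5.09 to 14.9) in cKO and 22.2% (15.1 to 30.8) in flox. Jag1 was also lower, at 105 CPM (76.2 to 141) in cKO and 213 CPM (183 to 247) in flox, a ratio of -1.02 (-1.53 to -0.54) that was -0.40 in cells low in heat shock UMIs and likewise in cells low in immediate early UMIs.

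Notch1 did not differ beyond counting error in mural-like cells, with 83.5 CPM in cKO and 82.1 CPM in flox, at 0.02 (-0.60 to 0.63). Remaining members had few UMIs: 6 in cKO and 31 in flox for Notch2, 2 and 3 for Dll1, 8 and 0 for Dll4, 7 and 16 for Hey1, and 7 and 34 for Hey2. Hes5 had none in either library, which allows up to 7.15 CPM in cKO and 3.52 CPM in flox. Higher were 0 of 4 measured members, against 16.8% of all genes, and lower were 2 of 4, against 27.0%. The 12 mural markers themselves summed to 15300 CPM in cKO and 29200 CPM in flox, none at 0 in either library. They did not all move alike, since Rgs5, 1 of the 12, was at 3600 CPM in cKO and 2060 CPM in flox. Fibroblast markers summed to 1220 CPM in cKO, with 2 of 12 at 0, and 2150 CPM in flox, with none at 0. The part of these in the lower cKO values of Hes1, Jag1 and Heyl was not tested. Heat shock genes summed to 15500 CPM in cKO and 7210 CPM in flox and immediate early genes to 14600 and 20000 CPM. Among cells low in heat shock UMIs the Hes1 ratio was -1.85, and among those low in immediate early UMIs it was -1.75.

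The members differed in where they were found. For Hes1 the order of groups differed between the libraries. In cKO it ran from satellite-glia-like cells (266 CPM) through cycling glia (127), endothelial-like (109) and mural-like cells (100), whose intervals overlapped, to immature glia (84.3), whose interval overlapped those of both vessel groups, and then myelinating-Schwann-like (46.6) and neuron-like cells (27.4). In flox it ran from mural-like (336 CPM) and endothelial-like cells (189) to satellite-glia-like cells (79.8), cycling glia (46.6), immature glia (37.6), myelinating-Schwann-like (12.5) and neuron-like cells (10.5). The flox intervals overlapped between cycling and immature glia and between the last pair. Notch1 was highest in endothelial-like cells of cKO (274 CPM), whereas in flox endothelial-like (210) and satellite-glia-like cells (228) had overlapping intervals. Along the glial groups Notch1 was highest in satellite-glia-like cells, at 148 CPM in cKO and 228 CPM in flox, and lowest in myelinating-Schwann-like cells, at 52.1 CPM in cKO and 38.6 CPM in flox. The intervals of satellite-glia-like cells and cycling glia overlapped in cKO for Notch1.

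Jag1 was highest in mural-like cells (105 CPM in cKO, 213 in flox), with satellite-glia-like cells next (89.6 and 169). Their intervals overlapped in both libraries. Of the 7 main groups, Hes5 and Hey2 were highest in satellite-glia-like cells in both libraries, Hes5 at 30.9 CPM in cKO and 61.7 in flox and Hey2 at 112 and 145, below the flox astrocyte-like cells given above. Hey1 was at 44.0 and 45.1 CPM there, with overlapping intervals in cKO between satellite-glia-like, immature (39.8) and cycling glia (38.1). Notch2 was spread over glia, fibroblasts and macrophages, with 41.2 CPM in cKO and 77.2 CPM in flox fibroblast-like cells and 37.5 and 42.6 CPM in macrophage-like cells. Fibroblast-like cells (1129 cKO and 1154 flox) also held Hes1, at 201 CPM in cKO and 132 CPM in flox, a log2 ratio of 0.60 (0.49 to 0.71). Dll1 was at 13.8 CPM in cKO and 13.5 CPM in flox endothelial-like cells and below 5 CPM in the other main groups, and Dll4 was at 19.1 CPM or less outside endothelium.

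The 3 genes with the most similar pattern to each member were found by Pearson r of log2(CPM + 1) over 14 points, the 7 main groups in each library. The points share libraries and depth, so r is a description. Notch1 was nearest to Grb10, Clic4 and Ifngr1 (r = 0.97 each), and Notch2 had Serpine2 and Col4a5 (0.92 each) among its nearest. Notch3 was nearest to Gucy1a1 (0.99), Ddr2 and Gucy1b1 (0.97 each), of which Gucy1a1 and Gucy1b1 encode the subunits of soluble guanylate cyclase. Jag1 was nearest to Heyl (0.95), itself a Notch target, then AW011738 (0.93) and Cald1 (0.92). Dll4 was nearest to Sox7 and Abcb1a (0.96 each) and Fli1 (0.95), and Dll1, with 142 UMIs in all, to Map3k3 (0.94), Luzp1 and Itga5 (0.93 each). Hes1 had the weakest matches of the 10, to Tmem37 (0.88), Nrarp and Tgfb2 (0.87 each), where Nrarp is a Notch target that feeds back on the pathway. Hes5 was nearest to Shank2 (0.98), Rlbp1 and Cnmd (0.95 each), Hey1 to Zfp704, Fzd8 (0.94 each) and Bicra (0.93), and Hey2 to Fjx1 (0.96), Alpl and Ctsk (0.95 each).

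Among the other 52 pathway genes, Rbpj, the DNA-binding partner of the freed receptor, was the gene named most often by the size rule, always as higher in cKO. Rbpj had 59.2 CPM in cKO and 34.6 CPM in flox immature glia, a log2 ratio of 0.77 (0.52 to 1.03), and 57.9 and 30.9 CPM in cycling glia, at 0.90 (0.53 to 1.28). In endothelial-like cells it was at 71.3 and 31.0 CPM, at 1.2 (0.63 to 1.77). Its ratios in satellite-glia-like (0.54, -0.06 to 1.14) and mural-like cells (0.73, -0.06 to 1.51) had intervals that included no difference. Nrarp had the sign of Jag1 in the 3 glial groups where it was named, with 62.6 CPM in cKO and 98.5 CPM in flox satellite-glia-like cells, at -0.66 (-1.07 to -0.25), but 23.2 and 13 CPM in immature glia, at 0.84 (0.42 to 1.26), and 55.9 and 38.5 CPM in cycling glia, at 0.54 (0.17 to 0.89).

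In satellite-glia-like cells 2 of 29 measured pathway genes were higher in cKO, against 7.13% of all genes, and 7 were lower, against 17.8%, with a median of -0.22. The share of higher genes was near that of all genes. Besides Rbpj, the other higher gene was Fbxw7 (0.80), which encodes a ubiquitin ligase subunit that acts on the freed receptor, and the lowest by the rule were Snw1 (-0.65), a partner of the RBPJ complex, and Nrarp. Immature glia had 5 higher and 5 lower of 38, against 9.52% and 17.1% of all genes, with Mib2 (-1.14), a ligase for Notch ligands, and Dtx3 (-0.77) lowest by interval bound. Myelinating-Schwann-like cells had 8 higher and 4 lower of 38, against 15.1% and 14.9% of all genes. By interval bound the coactivator Maml1 (1.47) and Dtx4 (1.52) were highest, and Notch4 (-2.10, on 2 cKO and 48 flox UMIs) and Mib2 (-0.67) lowest. Cycling glia had 4 higher and 4 lower of 37, against 7.99% and 14.7% of all genes, with the γ-secretase subunit Ncstn (-0.58) and Dtx3 (-0.61) lowest by interval bound.

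Neuron-like cells had 3 higher and 1 lower of 49 pathway genes, against 9.29% and 4.35% of all genes. The ligand-like Dlk1 was at 8.26 CPM in cKO and 3.19 CPM in flox, a log2 ratio of 1.37 (1.14 to 1.61), but at 40000 UMIs and over it was at 1.90 and 2.04 CPM. Maml1 was at 0.79, and Psen2, a γ-secretase catalytic subunit, at -0.58, with 20.3 CPM in cKO and 30.5 CPM in flox. Endothelial-like cells had 8 higher and 5 lower of 29, against 19.3% and 24.8% of all genes, among them Fbxw7 (1.03) higher and Dlk1 (-1.51) and the γ-secretase subunit Psenen (-0.67) lower. Mural-like cells had 3 higher and 4 lower of 17, against 16.8% and 27.0% of all genes, with Maml3 (1.41) higher and Heyl (-0.87) and Psenen (-0.84) lower. Heyl had 105 CPM in cKO and 191 CPM in flox mural-like cells, the same sign as Hes1 and Jag1 there.

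**Figure D5:**
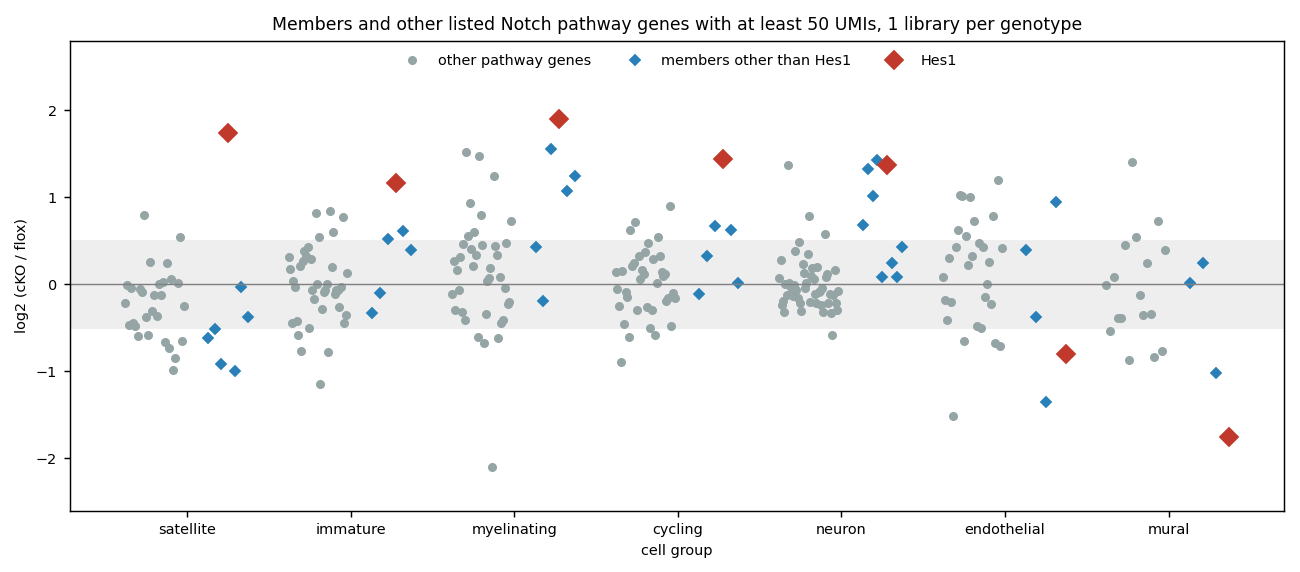
Log2 ratio of cKO over flox for members (diamonds, Hes1 in red) and for the other listed Notch pathway genes (grey circles) with at least 50 UMIs, by cell group, with grey shading within 0.5 of 0. Hes1 is the highest point in satellite-glia-like (1.74), immature (1.17), myelinating-Schwann-like (1.90) and cycling glia (1.44), and the lowest in mural-like cells (-1.75).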

How the data were processed

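The deposited matrices hold raw UMI counts per gene and barcode, made by the authors with cellranger 6.1.2 per the file headers; the submitters' processing notes list Cell Ranger 5.0.1, Scanpy and mm10. The cell filter asked for 1000 UMIs and 500 genes or more, with no more than 15% of UMIs mitochondrial. Scrublet called 2 cKO and 0 flox doublets automatically, so cells were instead dropped from the top of the score, 0.8% for each 1000 cells (569 cKO and 607 flox cells).

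Cells were grouped by UMIs of marker lists per 10000 UMIs. The limits were set after seeing marker scores. The members and gene lists were chosen with earlier results of these data known. Clusters (2000 variable genes, 30 components, 15 neighbours, Leiden resolution 1.0) served as an alternative.

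UMIs were summed per cell group and library. Levels have exact Poisson, shares exact Clopper-Pearson intervals, and those of ratios are exact and binomial, conditional on the sum; each is at 95% and covers counting error only. A count of 0 was read as up to 3 counts. No test between genotypes was possible with 1 library each. All members are named from 50 UMIs. Of the pathway list, the rule named the 2 highest and 2 lowest genes per group by the interval bound nearest to 0, among those at least 0.5 log2 from 0. Nearest genes needed 200 UMIs. A few gene results are left out here. The ratio and its interval were tested on simulated data. Software was Python 3.11.15, scanpy 1.11.5, scipy 1.17.1, leidenalg 0.10.2 and edgeR 4.0.16 (TMM factors).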

Additional observations from a re-analysis of the deposited data

Results flagged for a closer look

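For 3 members the cKO over flox ratio was past 0.5 log2 in opposite directions in different cell groups, with both intervals clear of 0. No difference between groups was tested, because each genotype had 1 library. Notch1 had log2 ratios of 0.68 in pooled neuron-like cells and -0.62 in satellite-glia-like cells. Within each of the 3 depth ranges of neuron-like cells the Notch1 intervals of the libraries overlapped. Jag1 had 1.55 in myelinating-Schwann-like cells and -1.35 in endothelial-like cells, where it had 11 cKO and 60 flox UMIs. In myelinating-Schwann-like cells Jag1 stood no higher than in macrophage-like cells in either library. Hes1 had 1.90 in myelinating-Schwann-like cells and -1.75 in mural-like cells. Its flox level in myelinating-Schwann-like cells, 12.5 CPM, lay below the 18.7 CPM of flox macrophage-like cells. In fibroblast-like cells, outside the main groups, Notch2 (-0.91), Notch3 (-0.78) and Hey2 (-1.21) were lower in cKO. Notch2 and Notch3 were higher in pooled neuron-like cells (1.32 and 1.01), and Hey2 in myelinating-Schwann-like cells (1.24). Hes1 (0.60) and Hey1 (1.09) were higher in fibroblast-like cells.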

How the results depend on the processing

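Of 485 recomputed member ratios, 393 stayed within the counting interval of the reported value, 84 moved outside it, and 8 that had counted as higher or lower reversed in sign. Among cells low in heat shock UMIs, Jag1 (-0.16) and Hey1 (-0.17) reversed in immature glia, Hey1 in cycling glia (-0.01) and Notch1 in neuron-like cells (-0.20). Among cells with 2000 to 5000 UMIs, Hey2 reversed in myelinating-Schwann-like cells (-0.27), Hey1 in cycling glia (-0.53) and Notch1 in neuron-like cells (-0.82), and thinning reversed Notch3 in neuron-like cells (-0.19). Hes1 in satellite-glia-like cells moved to 2.20 with thinning and 1.35 in cells low in immediate early UMIs. Members and pathway genes higher in satellite-glia-like cells numbered 3, but 1 with thinning, in cells low in heat shock UMIs and with Fabp7 as the sole satellite marker. Lower ones numbered 11, but 7 with thinning and 17 from 20 UMIs per gene. In other groups these counts ranged from 0 to 14 over the alternatives, and over all groups 50 of 172 moved by over 1.5 times. The cause was not tested. Depth limits Dll1, Dll4 and Hes5 most. No paired analysis was possible because there was 1 library per genotype.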
